A study of Mus musculus with 6 samples.

Results

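Carbonic anhydrases and a group of ion exchangers that set the pH of the cell, its surface and its endosomes were examined in mouse microglial cultures kept at low oxygen. The group was set by name: Car2, Car4, Car9, Car12, Car13, Car14, Slc9a9, Slc4a2 and Slc4a7. A member was taken where a feature of the array carried its symbol and no other. This gave 8 genes of the 30176 with a value, each with 1 feature, and Slc4a7 was not analysed here. The cells were microglia, the brain's own phagocytes, cultured from P0 (newborn) pups of the outbred CD1 strain. Each of the cultures numbered 3, 4 and 6 in the labels came from 5 pups whose cells were pooled, and gave 1 array after 6 h at 21% oxygen (normoxia) and 1 after 6 h at 1% oxygen (hypoxia). By the labels, the groups of 3 arrays differed in oxygen alone, and the cells carried no drug, transgene or deletion. Each culture is a pool of animals, so the spread between cultures does not show the spread between mice.

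Carbonic anhydrases are zinc enzymes that interconvert carbon dioxide and water with bicarbonate and protons. Glycolytic cells export lactate together with protons, and enzymes that face the outside of the cell, with bicarbonate transporters beside them, help to carry this acid away. In human tumours, CA9 is a well-known target of the hypoxia-inducible factor HIF and is used as a marker of low oxygen.

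None of the 8 genes passed the test at 1% oxygen. Hypoxia was compared with normoxia by limma with the culture as a block, so that each hypoxia array was set against the normoxia array of its own culture, and a gene was called at an adjusted p under 0.05 after Benjamini-Hochberg adjustment over all genes. The adjusted p-values of the members lay between 0.225 and 0.803. Over all genes, 162 were called, or 0.537%, so that a count of 0 among 8 members is near this background. Without the block 0.225% of all genes were called, and again 0 members (adjusted p of 0.545 and above). At an unadjusted p under 0.05 from limma, 1 member was higher (Car12) and 3 were lower (Car2, Car13 and Slc9a9), against 7.68% and 9.26% of all genes. The fit without the block gave 0 members at that level, against 10.4% of all genes in either direction. The arrays did carry a hypoxic response. Egln3, a prolyl hydroxylase gene that HIF induces, rose by 3.30 on the log2 scale, with a standard error of 0.07 (limma, adjusted p = 4.36e-05). The glucose transporter gene Slc2a1 rose by 1.72, with a standard error of 0.09 (limma, adjusted p = 0.00198).

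The members differed in level at 21% oxygen, but intensities of different probes are not on 1 scale and were not ranked. As a guide to features with little signal, the mean log2 intensities of 1224 olfactory receptor genes were used, of which the 5th and 95th percentiles were 3.04 and 5.95. Car12 and Car14, with means over the 6 arrays of 5.45 and 5.57, lay inside this range. The other 6 lay above it, from 6.51 for Car4 to 10.38 for Slc9a9. So did 4 of 10 neuron markers, the highest of which was Tubb3 with a normoxia mean of 7.10. A place above the range thus does not by itself show expression in microglia. For Car4, Car2 and Car9, with means of 6.51, 6.83 and 7.07, such expression was not tested.

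**Figure D1:**
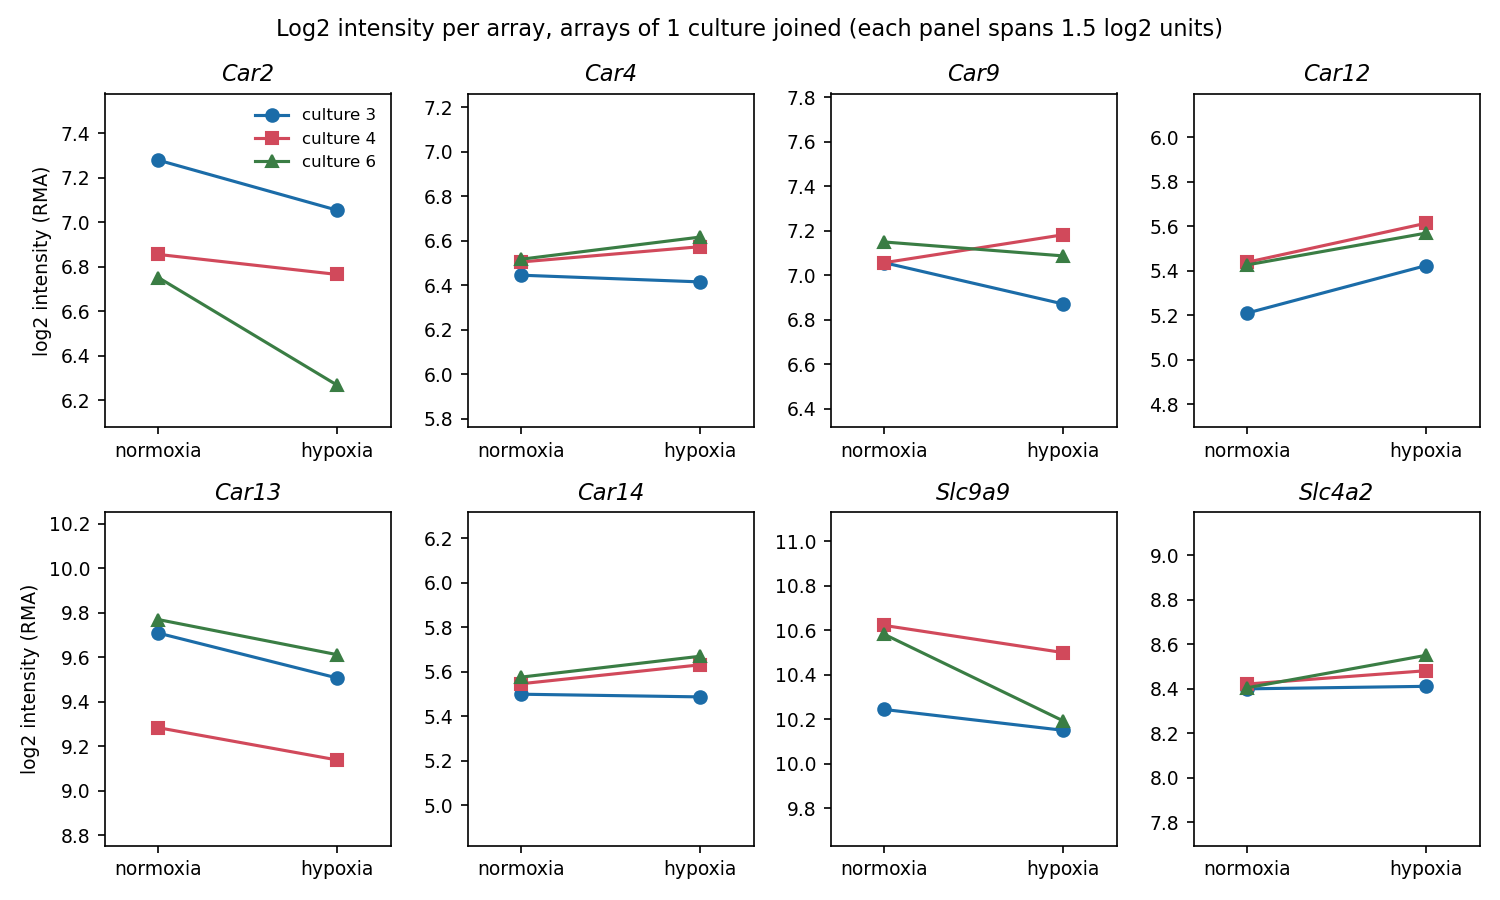
Log2 intensity (RMA, vertical axis) of the 8 members in normoxia and hypoxia; each line joins the 2 arrays of 1 culture, and every panel spans 1.5 log2 units. All 3 lines go down for Car2, Car13 and Slc9a9 and up for Car12 and Slc4a2, and in every panel but that of Slc4a2 the 3 cultures lie apart by more than the fitted change.

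Car9 encodes a transmembrane carbonic anhydrase whose catalytic domain faces the outside of the cell. The gene (Entrez 230099) spans bases 43507026 to 43513729 of chromosome 4 in GRCm38. In normoxia its log2 intensity was 7.06, 7.06 and 7.15 in cultures 3, 4 and 6, and in hypoxia it was 6.87, 7.18 and 7.09. The groups overlapped, with culture 3 lower by 0.19, culture 6 lower by 0.06 and culture 4 higher by 0.13 in hypoxia. The normoxia arrays averaged 7.09 ± 0.05 and the hypoxia arrays 7.05 ± 0.16 (SD over n = 3 cultures). The log2 fold change was -0.04 with a standard error of 0.08 (limma, adjusted p = 0.803), and its 95% confidence interval ran from -0.23 to 0.15. Without culture 4 it was -0.12, and without culture 3 it was 0.03. On a linear scale the interval covers 0.851 to 1.11 times the normoxic intensity.

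The 250 bases before a RefSeq transcript start of Car9 (GRCm38.p6, chr4:43506776-43507025, plus strand) are shown because this is the member best known as a HIF target. They are set beside those of Slc16a3 (GRCm38.p6, chr11:120948817-120949066, plus strand), which is described further down and rose in hypoxia. Capitals mark the core letters to which HIF is known to bind, ACGTG or GCGTG, on either strand.
Car9: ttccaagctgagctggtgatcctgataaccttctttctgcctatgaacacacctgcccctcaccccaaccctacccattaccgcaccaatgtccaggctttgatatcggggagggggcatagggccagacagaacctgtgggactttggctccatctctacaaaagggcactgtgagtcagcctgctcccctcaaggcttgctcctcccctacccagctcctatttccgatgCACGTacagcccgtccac
Slc16a3: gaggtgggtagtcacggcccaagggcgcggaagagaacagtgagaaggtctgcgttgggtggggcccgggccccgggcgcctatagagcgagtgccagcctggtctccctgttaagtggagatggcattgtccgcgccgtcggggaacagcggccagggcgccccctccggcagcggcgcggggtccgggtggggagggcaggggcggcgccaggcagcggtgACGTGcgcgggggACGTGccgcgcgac
The window of Car9 held 1 match, which reads CACGT on the printed strand and begins 18 bases before the start. That of Slc16a3 held 2, both ACGTG, which begin 27 and 14 bases before it. The matches do not overlap one another. Such a match was present in 38.6% of 32851 promoter windows of the same length, so alone it only describes the sequence. Whether HIF binds at these matches was not tested. Of the 8 members, 6 had a window in the RefSeq table, and Car2 and Car13 did not. The windows of Car9 and Car4 end at the base next to the gene span given here, while those of the other members and of Slc16a3 precede a transcript start that lies inside the gene. Besides Car9, Car14 held 1 match and Slc4a2 held 1 in the first of its 2 windows. Those of Car4, Car12 and Slc9a9 held 0.

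Car12 and Car14 encode the other transmembrane carbonic anhydrases of the group, which likewise act outside the cell. Car12 (Entrez 76459; chromosome 9, 66712296 to 66766845) stood at 5.21, 5.44 and 5.43 in normoxia in cultures 3, 4 and 6 and at 5.42, 5.61 and 5.57 in hypoxia. It was higher in hypoxia in all 3 cultures, by 0.21, 0.18 and 0.14, while the groups overlapped because culture 3 was low in both conditions. This was the largest upward difference among the 8, with a log2 fold change of 0.18 (standard error 0.06, 95% confidence interval 0.03 to 0.33, unadjusted p = 0.0271 and adjusted p = 0.239 from limma). Its intensity was within the range of the olfactory receptor genes, so whether microglia expressed it cannot be read from these arrays. Car14 (Entrez 23831; chromosome 3, 95897768 to 95905117) stood at 5.50, 5.55 and 5.58 in normoxia and at 5.49, 5.63 and 5.67 in hypoxia. The differences were -0.01, 0.09 and 0.09, the fitted value was 0.06 with a standard error of 0.06 (limma, adjusted p = 0.671), and the groups overlapped. It was 0.09 without culture 3 and 0.04 without culture 6. Cyclic loess is a normalization that removes trends with intensity between arrays. After it, the value for Car12 was 0.12 and that for Car14 was -0.00118, so the direction of the latter turned.

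Car4 encodes an enzyme held on the outer membrane by a lipid anchor, known in the brain from capillary endothelium. Car4 (Entrez 12351; chromosome 11, 84957754 to 84966054) stood at 6.45, 6.51 and 6.52 in normoxia and at 6.42, 6.57 and 6.62 in hypoxia. The hypoxia values lay on both sides of the normoxia values, with the lowest of the 6 in culture 3. The log2 fold change was 0.05 (standard error 0.06, 95% confidence interval -0.11 to 0.20, adjusted p = 0.729 from limma). It was 0.08 without culture 3 and 0.02 without culture 6.

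The cytosolic enzymes Car2 and Car13 had lower values in hypoxia in all 3 cultures, and neither passed the test. Car2 is the fast cytosolic carbonic anhydrase, known in the brain chiefly from oligodendrocytes and choroid plexus, and Car13 is a further cytosolic form. The genes lie near each other on chromosome 3, Car13 (Entrez 71934) from 14641727 to 14663002 and Car2 (Entrez 12349) from 14886269 to 14900770. The log2 intensity of Car2 was 7.28, 6.86 and 6.75 in normoxia in cultures 3, 4 and 6, and 7.06, 6.77 and 6.27 in hypoxia. It was lower in hypoxia in all 3 cultures, but by unequal amounts of -0.22, -0.09 and -0.48, and the groups overlapped. The cultures themselves spanned 0.66 in their mean over both conditions, more than the log2 fold change of -0.27 (standard error 0.09, 95% confidence interval -0.48 to -0.05, adjusted p = 0.225 from limma). Without culture 6 it was -0.16. Car2 thus had the largest difference of the 8, and also the widest spread of differences (SD 0.20, n = 3).

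Car13 had the most even differences of the group. Its log2 intensity was 9.71, 9.28 and 9.77 in normoxia and 9.51, 9.14 and 9.61 in hypoxia. Culture 4 was low in both conditions, so the groups overlapped, yet the differences were -0.20, -0.15 and -0.16, with an SD of 0.03 (n = 3). The log2 fold change was -0.17 (standard error 0.06, 95% confidence interval -0.32 to -0.02), or 0.890 times the normoxic intensity. The adjusted p from limma was 0.252 with the block and 0.721 without it, and both miss the threshold. Car1 (14766214 to 14808365) and Car3 (14863538 to 14872381), carbonic anhydrase genes that lie between Car13 and Car2, had log2 fold changes of 0.14 and 0.07 (adjusted p of 0.389 and 0.603 from limma), and without culture 3 Car1 had one of 0.21. Both were within the range of the olfactory receptor genes.

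**Figure D2:**
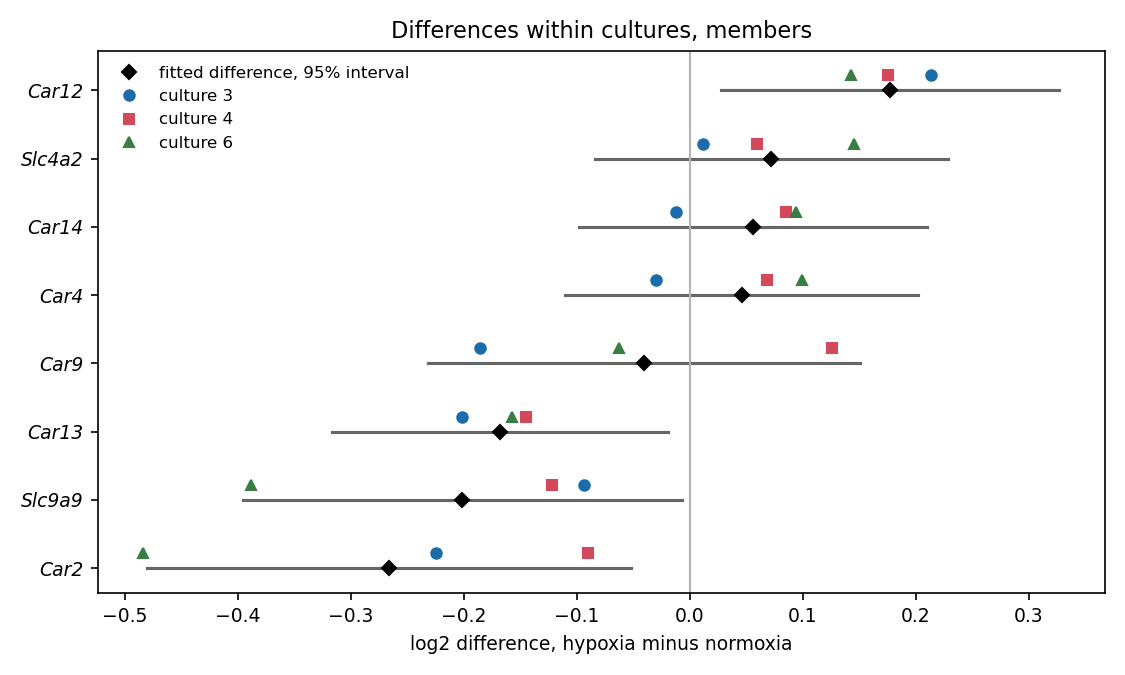
Log2 difference, hypoxia minus normoxia, of the 8 members (horizontal axis); coloured symbols are the differences within cultures 3, 4 and 6, and the diamond with its bar is the fitted value with its 95% confidence interval, not adjusted for the number of genes. The intervals of Car12, Car13, Slc9a9 and Car2 leave out 0, yet all of the adjusted p-values are 0.225 or higher.

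Slc9a9 encodes NHE9, a sodium-proton exchanger of endosomes that lets protons out of their lumen. The gene (Entrez 331004; chromosome 9, 94669557 to 95230453) stood at 10.24, 10.62 and 10.58 in normoxia and at 10.15, 10.50 and 10.19 in hypoxia. The differences were -0.09, -0.12 and -0.39 in cultures 3, 4 and 6. Culture 6 thus supplied most of the mean difference, and without it the log2 fold change was -0.11. With all cultures it was -0.20 (standard error 0.08, 95% confidence interval -0.40 to -0.01, adjusted p = 0.283 from limma), and the groups overlapped.

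Slc4a2 encodes AE2, a widely expressed exchanger that swaps bicarbonate for chloride and so lowers the pH of an alkaline cell. Slc4a2 (Entrez 20535; chromosome 5, 24423761 to 24440947) stood at 8.40, 8.42 and 8.40 in normoxia, an SD of 0.01 (n = 3), and at 8.41, 8.48 and 8.55 in hypoxia. The differences were 0.01, 0.06 and 0.15. All 3 were above 0, but the hypoxia value of culture 3 lay below the normoxia value of culture 4, so the groups overlapped. The log2 fold change was 0.07 (standard error 0.06, 95% confidence interval -0.08 to 0.23, adjusted p = 0.588 from limma), and without culture 6 it was 0.04.

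Across the group, 3 members (Car2, Car13 and Slc9a9) were lower and 2 (Car12 and Slc4a2) were higher in all 3 cultures, against 17.5% and 24.8% of all genes. In 0 of the 8 were the hypoxia and normoxia arrays fully apart, as they were for 15.8% of all genes. The median log2 fold change of the members was 0.00258, and that of all genes was 0.03. The widest intervals on either side reached 0.717 times the normoxic intensity for Car2 and 1.25 times for Car12. Changes beyond these sizes lie outside the intervals, while smaller ones could not be shown with 3 cultures. Differences also varied with brightness. The median log2 fold change was 0.06, 0.06, 0.03 and -0.07 in 4 equal-sized intensity classes of all genes, the dimmest first, and Car13 and Slc9a9 belong to the brightest class. After cyclic loess these genes had values of -0.09 and -0.10, Car2 had -0.30, and Slc4a2, also in the brightest class, had 0.10. The part of brightness in the members' differences was not tested further.

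Among other genes of acid and base handling, Slc16a3 alone passed. The lists held 77 genes besides the members, of which 71 had a value, and 1 rose and 0 fell. Slc16a3 encodes MCT4, which carries lactate and protons out of glycolytic cells. It stood at 8.20, 8.35 and 8.19 in normoxia and at 9.88, 10.14 and 10.12 in hypoxia. Each hypoxia array was above every normoxia array, and the differences of 1.68, 1.80 and 1.92 were alike in the 3 cultures. The log2 fold change was 1.80 (standard error 0.07, adjusted p = 0.000482 from limma), or 3.48 times the normoxic intensity. Its 95% confidence interval, 1.63 to 1.98, lies far above those of all 8 members, whose upper ends reach at most 0.33. Slc16a1, which encodes the related transporter MCT1, had a value of 0.42 (adjusted p = 0.0972 from limma). Bsg, which encodes their chaperone basigin, had one of 0.28 (adjusted p = 0.162 from limma). The arrays of hypoxia and normoxia were apart for both genes, as they were for 15.8% of all genes. Slc16a7, which encodes MCT2, had one of -0.20 (adjusted p = 0.251 from limma), was lower in all 3 cultures, and its groups did not overlap either. The 6 genes of this list had a median of 0.21.

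None of the other carbonic anhydrases passed: 0 of 10 rose or fell. Their log2 fold changes ran from -0.04 to 0.14 with a median of 0.09, and 5 of them were above the range of the olfactory receptor genes. Besides Car1, the largest was that of Car6, a secreted salivary form, at 0.13 (adjusted p = 0.372 from limma). Of 12 genes on the list of sodium-proton exchangers and their partners, 9 had a value and 0 passed, with a median of 0.05. The extremes were Slc9b2 at 0.16 (adjusted p = 0.365 from limma, and 0.07 in log2 fold change without culture 3) and Slc9a7, an exchanger of the trans-Golgi network, at -0.15 (adjusted p = 0.327 from limma). Car6 and Slc9b2 were within the range of the olfactory receptor genes.

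Of 14 other bicarbonate transporters 0 passed, with a median of 0.06. Slc4a4 encodes the sodium-bicarbonate cotransporter NBCe1, known in the brain from astrocytes. It stood at 6.53, 5.87 and 5.90 in normoxia and at 7.19, 6.16 and 6.32 in hypoxia. It was higher in all 3 cultures, as were 24.8% of all genes, and culture 3 was highest in both conditions. Its log2 fold change was 0.46 (standard error 0.09, adjusted p = 0.0946 from limma, and 0.0482 without culture 4). Of the astrocyte markers, Gfap was also highest in culture 3 in both conditions (7.11 and 7.35), while Aldh1l1 was highest in culture 4. Slc4a10, a sodium-driven bicarbonate transporter of neurons, had a value of 0.19 (adjusted p = 0.215 from limma) and was within the range of the olfactory receptor genes.

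Subunits of the vacuolar proton pump, which acidifies lysosomes and phagosomes, lay mostly below 0. Of 17 with a value 0 passed, 16 had a log2 fold change below 0, against 40.3% of all genes, and 9 were lower in all 3 cultures, against 17.5% of all genes. Their median was -0.11. The lowest were Atp6v1b2 at -0.22 (adjusted p = 0.189 from limma) and Atp6v0a1 at -0.22 (adjusted p = 0.319 from limma), and without culture 6 the latter was -0.09. The shares of 40.3% and 17.5% are over all genes, of any brightness. All 17 subunits belong to the brightest class of genes, whose own median was -0.07. After cyclic loess the median of the 17 was -0.05. Some of the 16 then turned above 0, with values up to 0.11. Most stayed below it, among them Atp6v1b2 at -0.10 and Atp6v0a1 at -0.12. Whether brightness had a part in the lower values was not tested. Of 8 genes on the list of proton and chloride channels and related transporters 0 passed, with a median of 0.01. Clcn3 had a value of 0.18 and the acid-activated chloride channel gene Pacc1 one of 0.12 (adjusted p of 0.265 and 0.415 from limma). Of 9 proton sensors 7 had a value and 0 passed, with a median of 0.06. Gpr65, an acid-sensing receptor of immune cells, stood at 10.23, 10.21 and 10.57 in normoxia and at 10.03, 9.86 and 10.17 in hypoxia. Every hypoxia array was below every normoxia array, and the log2 fold change was -0.32 (standard error 0.07, adjusted p = 0.125 from limma). Gpr4, a related receptor known from endothelium, had a value of 0.22 (adjusted p = 0.250 from limma), and one of 0.14 without culture 3. Its hypoxia arrays were all above its normoxia arrays. The groups were apart for 3 of the 7 sensors, against 15.8% of all genes.

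**Figure D3:**
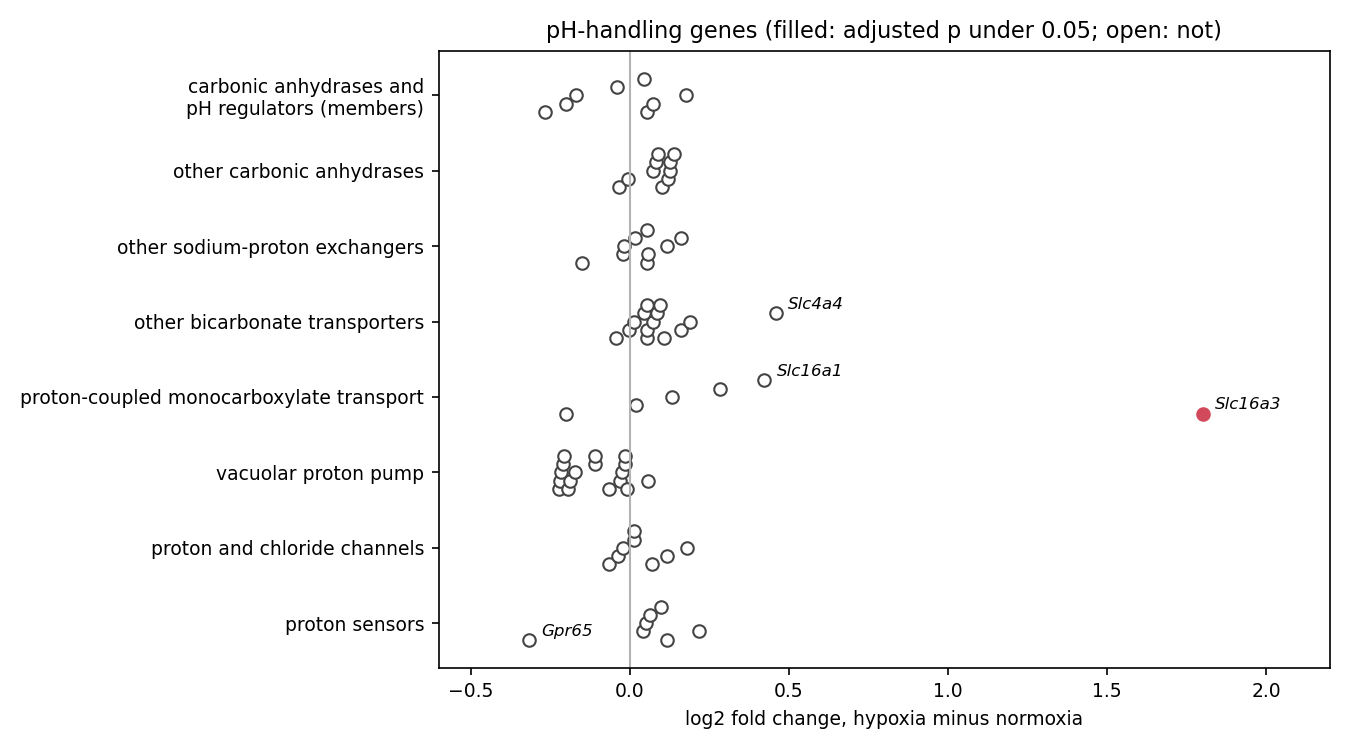
Log2 fold change, hypoxia minus normoxia (horizontal axis), of the 8 members and of 71 other genes of acid and base handling by list; filled circles passed an adjusted p under 0.05, open circles did not, and vertical offsets only separate the points. Slc16a3 at 1.80 is the only filled circle, and all members lie between -0.27 and 0.18.

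The arrays measured whole cultures, so fewer cells of a type and less RNA per cell cannot be told apart. Microglial markers were bright: all 10 with a value, among them Cx3cr1 and P2ry12, were in the brightest class of genes, and 0 passed the test (median -0.10, and -0.01 after cyclic loess). The log2 of their summed intensities, called the sum from here on, was 15.04 to 15.06 in normoxia and 14.96 to 15.03 in hypoxia. The brightest markers weigh most in such a sum. Of 9 oligodendrocyte lineage markers, all were above 0 and 0 passed (median 0.07), with sums of 10.67 to 10.71 and 10.71 to 10.92. The 11 endothelial markers were also above 0 with 0 passing (median 0.12; sums of 10.24 to 10.59 and 10.52 to 10.74), as were the 8 astrocyte markers (median 0.13; sums of 9.10 to 9.40 and 9.32 to 9.60). Of 10 neuron markers 8 were above 0 and 0 passed (median 0.08; sums of 9.32 to 9.42 and 9.43 to 9.52). Of 12 fibroblast and pericyte markers 11 were above 0 (median 0.40) and 2 rose, Col1a1 by 0.55 (adjusted p = 0.0460 from limma) and Col3a1 by 0.64 (adjusted p = 0.0453 from limma), while without the block 0 passed. Their sums ranged from 10.60 to 12.29 in normoxia and from 11.30 to 12.69 in hypoxia. Within cultures 3, 4 and 6 the hypoxia sum was higher by 0.40, 0.73 and 0.44, and 8 of the 12 markers were higher in all 3 cultures, against 24.8% of all genes. Of 11 markers of other myeloid cells 5 were above 0 and 0 passed (median -0.05; sums of 9.86 to 10.20 and 9.71 to 10.27). For comparison, 18030 of all 30176 genes were above 0. After cyclic loess the medians were 0.07 for oligodendrocyte lineage, 0.06 for endothelium, 0.08 for astrocytes and 0.03 for neurons. They were 0.42 for fibroblasts and pericytes and -0.10 for other myeloid cells. Markers within the range of the olfactory receptor genes or below it were 4 of 8 for astrocytes, 1 of 9 for oligodendrocyte lineage, 3 of 11 for endothelium, 6 of 10 for neurons, 4 of 12 for fibroblasts and pericytes and 7 of 11 for other myeloid cells. The part of other cells in the values of Car2, Car4 and Slc4a4 was not tested.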

How the data were processed

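The authors deposited log2 intensities of 6 one-colour Affymetrix arrays after RMA, in which background is corrected, arrays are quantile normalized and probes are combined into 1 value per feature. Per the labels, the submitters' processing notes list limma, RMA, Affymetrix Expression Console and mm10 (GRCm38) as the build, with versions and filters not given in the sources used here. No further normalization was applied. Array medians were 5.84 to 5.92, and precision is limited by the number of arrays.

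Of 72688 features, 30638 had 1 gene symbol in the platform annotation, 2176 had several and 39874 were not listed. For the 354 genes with more than 1 feature, the one with the highest mean was taken, which left 30176 genes. No filter on dim genes was applied. Gene positions are those of RefSeq (GRCm38.p6).

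Hypoxia minus normoxia was fitted with lmFit and eBayes in limma 3.58.1 (R 4.3.3), with the culture as a fixed block and Benjamini-Hochberg adjustment over all genes. All p-values are two-sided. With the block they rest on how much the difference varied among the cultures, 3 in the main fit. Without it they rest on the spread of arrays within each oxygen level. Either spread is moderated by eBayes with the variances of all genes. The standard errors and intervals are those of the fit with the block. That fit had 6.39 degrees of freedom in total, part of which eBayes adds from all genes. For Car13 the differences had an SD of 0.03, while the moderated standard error was 0.06. By the labels, each culture has 1 array at either oxygen level. Relative to their group means, the 2 arrays of a culture deviated together, with correlations of 0.57, 0.40 and 0.22 in cultures 3, 4 and 6, against -0.50 to 0.14 between cultures. Deviations from a mean of 3 arrays cancel within a group, so high values within cultures force low ones between them. The contrast is thus not an independent check of the pairing. The 0.22 of culture 6 also lies near the 0.14 between its normoxia array and the hypoxia array of culture 4. The fit was tested on simulated data before use. Alternatives were no block, each culture left out, median centring, quantile normalization, cyclic loess, dim genes left out, array weights and an intensity trend.

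The members and lists were chosen with earlier results of these data known. Named were all members, other listed genes past the threshold, and otherwise the 2 with the largest absolute change in each list. Egln3 and Slc2a1 served as a check of the treatment. Col1a1 and Col3a1, as well as Car3, Slc16a7, Tubb3, Gfap, Aldh1l1, Cx3cr1 and P2ry12, were named after their values were seen. Of the list genes, Nherf1 was matched through its older symbol Slc9a3r1.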

Additional observations from a re-analysis of the deposited data

How the results depend on the processing

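In 75 of 78 alternative values over the 8 members, the direction and the side of the threshold were kept. The fits with no block, with dim genes left out and with an intensity trend leave the log2 fold change as it is. In these the direction could not change, and only the side of the threshold could. The count of members past the threshold was 0 under every alternative run. Adjusted p-values from limma ranged from 0.153 to 0.994 over these alternatives. The exceptions were changes of sign close to 0. Car9 went from -0.04 to 0.0112 with array weights, and lay between -0.12 and 0.0315 when 1 culture was left out (above 0 without culture 3). Car14 went from 0.06 to -0.00118 after cyclic loess. With dim genes left out, Car12 and Car14 gave no value. No member had more than 1 feature, so averaging over features could not be run.

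The count over all genes moved more. The blocked fit called 127 higher and 35 lower genes. The fit with no replicate block gave 63 and 5, and changed no member's call. Median centring gave 53 and 6, and the lower count was 10 after quantile normalization and 11 after cyclic loess. With dim genes left out there were 193 and 101, with array weights 249 and 144, and with an intensity trend 214 and 117. Leaving out 1 culture gave 17 to 135 higher and 1 to 94 lower genes, with 17 and 1 without culture 3, 94 lower without culture 4 and 22 lower without culture 6. The cause was not tested. Of the other genes of acid and base handling, 1 to 2 passed when 1 culture was left out, the second being Slc4a4 without culture 4 (0.54, adjusted p = 0.0482 from limma). Slc16a3 passed under every alternative run.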
